A study of Mus musculus with 8 samples.

Results

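Tubulins are the proteins from which microtubules are built, and mammals carry a separate gene for each of many closely related isoforms. The 10 tubulin genes described here are the alpha-tubulins Tuba1a, Tuba1b, Tuba1c and Tuba4a, the beta-tubulins Tubb2a, Tubb2b, Tubb3, Tubb5 and Tubb6, and the gamma-tubulin Tubg1. They were taken by name from the annotation of the arrays, each with its brightest probe (highest mean log2 signal over all arrays) as its value, and are 10 of 29924 named genes. All 10 were among the 15747 genes tested, which were those detected well above background on the d12 and the d25 array of 1 or more cell types. Alpha- and beta-tubulin pair into dimers that add to and leave the ends of microtubules, whereas gamma-tubulin sits in ring complexes at the centrosome from which microtubules grow. In T cells, microtubules turn the centrosome towards a contacted cell, carry vesicles and separate the chromosomes at division. Isoforms of 1 class are similar along most of their length and differ mainly at the tail that microtubule-binding proteins and modifying enzymes use. Tubb3 is best known from neurons.

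The cells came from peripheral lymph nodes (pLN) of B6.Cg-Foxp3<tm1Mal> mice, a strain in which Foxp3+ cells carry EGFP, 8 to 14 weeks of age and of both sexes, and all mice had received keyhole limpet hemocyanin (KLH) with alum. Cells of 8 to 15 mice were pooled per sort at day 12 (d12) or d25 post immunization, and 25 ng of RNA went onto an Agilent single-color array. All sorted cells were CD4+B220-. Naïve CD4 T cells were gated as GFP-PD1-GL7-, follicular helper T (TFH) cells as GFP-PD1hiGL7+, regulatory T (Treg) cells as GFP+PD1-GL7- and follicular regulatory T (TFR) cells as GFP+PD1hi cells with or without GL7, so the TFH and TFR gates differed in GL7 as well as in GFP. Each of the 4 cell types had 1 array per day, 8 arrays in all, without a replicate for a cell type on a given day. The p-values below therefore measure the spread between the d12 and the d25 array of each cell type after removal of a common difference between days. In bulk RNA of sorted pools, more cells that express a gene and more RNA per cell cannot be told apart.

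Between 18254 and 19867 of 39429 probes stood well above background on an array, and none was saturated. Levels are given in RU, the background-corrected signal after quantile normalization, with the 75th percentile of each array at 1500. RU values of different probes are not comparable with each other. Foxp3 read 48622 to 49260 RU in Treg and 37266 to 37521 RU in TFR cells but 285 to 358 RU in naïve and 66 to 83 RU in TFH cells, and Pdcd1, the gene for PD1, read 87318 to 303525 RU in TFH and TFR cells against 2097 to 4625 RU in the others, as the gates describe. The summed signal of 11 B cell genes was 18748 RU on the d25 TFH array and 6317 to 10513 RU on the other 7 arrays, with Pax5 not detected on any array. Sums of 9 myeloid genes were 48379 to 60843 RU in naïve, 58724 to 65006 in TFH, 54536 to 56320 in Treg and 63272 to 63759 in TFR cells, with Adgre1, Fcgr1 and Cd14 not detected. Those of 4 CD8 T and NK cell genes, without Ncr1, were 5080 to 5320, 3621 to 6274, 4262 to 4669 and 2882 to 3074 RU in the same order, and those of 6 endothelial and stromal genes, without Cdh5, Pdgfrb and Pdpn, were 3106 to 3486, 2075 to 2255, 2698 to 3635 and 1157 to 1228 RU. These sums are carried by their brightest probes, and single genes went their own way. Of 5 myeloid genes tested, 2 rose and 2 fell from naïve to TFH cells, and 1 rose from Treg to TFR cells. Itgam read 28500 and 19636 RU in naïve and 21186 and 13020 RU in TFH cells, d12 before d25. Csf1r read 621 and 681 RU in naïve and 459 and 542 RU in TFH cells. Cst3 was higher in TFH cells on both days, with 30547 and 27035 RU in naïve and 37685 and 40031 RU in TFH cells. Lyz2 read 449 and 352 RU in naïve and 461 and 1247 RU in TFH cells. Cd68, a lysosomal protein of macrophages, read 551 and 564 RU in naïve, 5098 and 3767 RU in TFH, 368 and 394 RU in Treg and 2867 and 2334 RU in TFR cells, d12 before d25 (adjusted p = 0.000336 for TFH versus naïve and 0.000843 for TFR versus Treg). Klrb1c, the NK1.1 receptor gene, was well above background on 7 arrays, with 162 and 96 RU, 1483 and 3077 RU, 77 and 35 RU, and 820 and 752 RU in that order (adjusted p = 0.00397 and 0.00622). Cd8b1 fell in both comparisons (adjusted p = 0.00597 and 0.0109), as did Pecam1 (adjusted p = 0.00725 and 0.000724), while Col1a1, at 20 to 288 RU, was higher in both (adjusted p = 0.0201 and 0.0157). The part of other cells in the tubulin values was not tested. Without the d25 TFH array, 8 of the 10 tubulin genes differed between TFH and naïve cells, and 9 did with it.

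Tubulin isoforms moved in different directions as cells took the follicular phenotype. In TFH relative to naïve cells, 6 of the 10 genes were higher (Tuba1b, Tuba1c, Tubb2a, Tubb2b, Tubb3 and Tubb6), where 21.0% of all genes were, and 3 were lower (Tuba1a, Tuba4a and Tubb5), where 25.7% were. In TFR relative to Treg cells, 4 were higher (Tuba1b, Tuba1c, Tubb6 and Tubg1) against 18.8% of all genes, and 3 were lower (Tuba1a, Tuba4a and Tubb2a) against 21.0%. These calls come from limma with cell type and day as terms and an adjusted p under 0.05 over all genes. The median log2 difference of the 10 was 0.39 for TFH minus naïve, with -0.071 over all genes. For TFR minus Treg it was 0.19 beside -0.077, and 0.023 over the 9 genes left when Tubb3, measured in neither cell type, is taken out. The TFR versus Treg count of 7 was 1 without either Treg array, 2 without the d25 TFR array and 4 without the d12 TFR array or either naïve array. An F test over the 4 cell types called 9 of the 10 genes, all but Tubg1, and 57.9% of all genes.

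**Figure D1:**
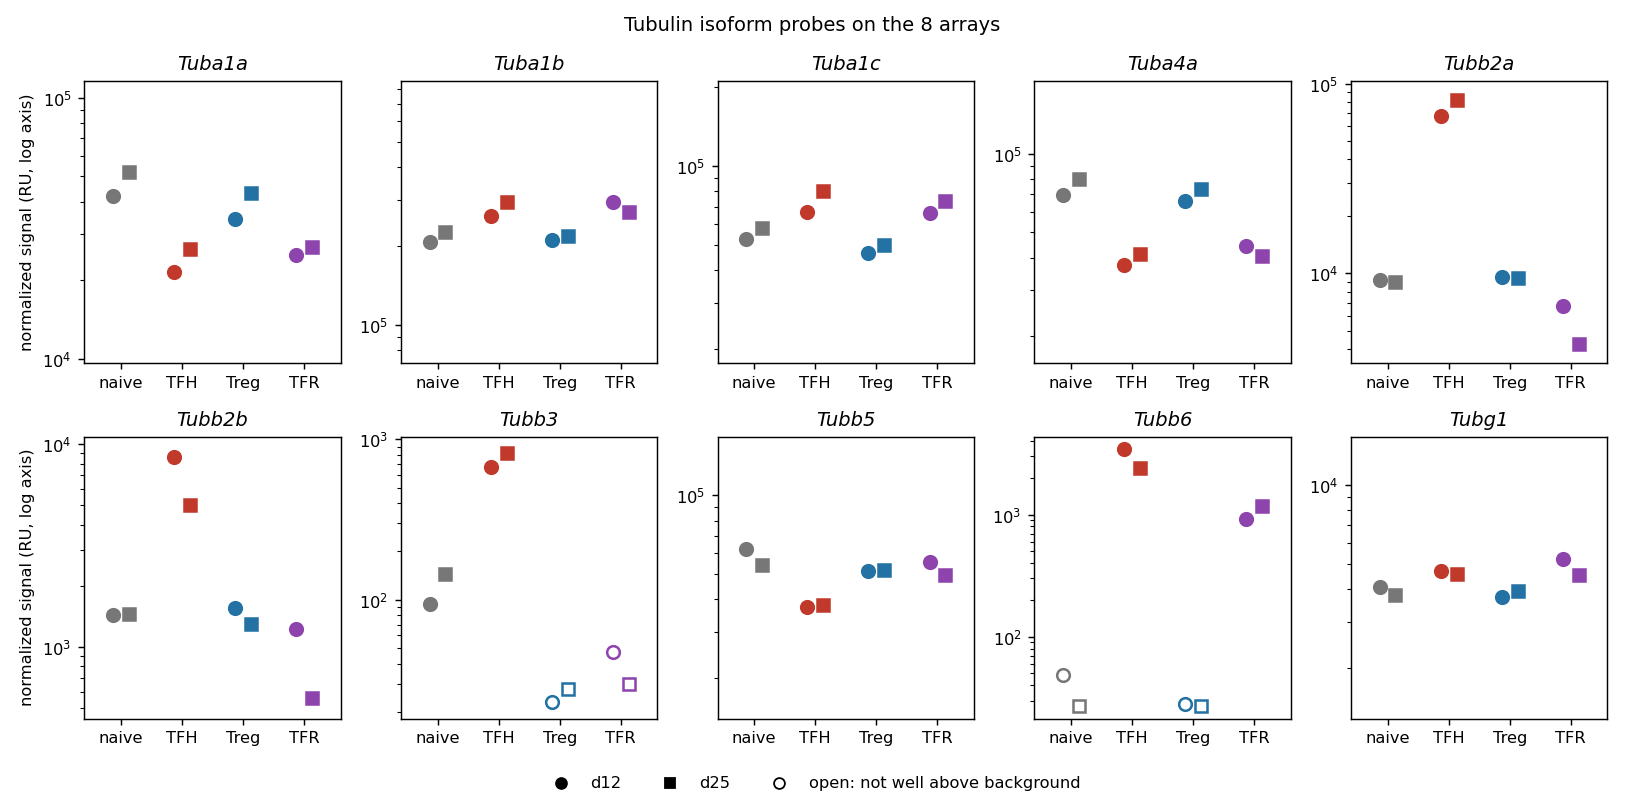
Normalized signal in RU (log axis, each gene with its own range) of the 10 tubulin genes in the 4 sorted T cell populations, 1 point per array. Circles are d12 and squares d25, and open symbols mark arrays on which the probe was not well above background. Tubb2a, Tubb2b and Tubb3 stood highest on the 2 TFH arrays, Tubb6 on the TFH and TFR arrays, and Tuba1a and Tuba4a were lower on those 4 arrays than on the naïve and Treg arrays.

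Among the alpha-tubulins, Tuba1a and Tuba4a fell and Tuba1c rose in both follicular populations. Tuba1a, the main alpha-tubulin of young neurons that is also made in many other cells, lies on chromosome 15 (probe at chr15:98780266-98780325, minus strand, NCBI37). It read 42026 RU at d12 and 52047 RU at d25 in naïve cells, 34278 and 43017 RU in Treg, 24922 and 26874 RU in TFR, and 21444 and 26411 RU in TFH cells. All 4 follicular arrays were thus below all 4 others. The log2 difference was -0.97 ± 0.096 (SE, 2 arrays per cell type) for TFH minus naïve (1.97-fold lower, adjusted p = 0.00168) and -0.57 ± 0.096 for TFR minus Treg (1.48-fold lower, adjusted p = 0.0109). TFR and TFH cells did not differ past the threshold (0.12, 95% interval -0.13 to 0.37), nor did Treg and naïve cells (-0.28, -0.53 to -0.037, adjusted p = 0.141). A second probe, which shares a run of 13 bases with the first, read 1.86-fold lower in TFH than naïve and 1.5-fold lower in TFR than Treg cells, with adjusted p = 0.00607 and 0.0257. Without the d12 Treg, the d25 Treg or the d25 TFR array the TFR call was lost, at -0.61 to -0.47 with adjusted p = 0.0592 to 0.0756, and it was also lost without the day term (adjusted p = 0.0699).

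Tuba4a (chr1:75212307-75212366, minus strand) encodes an alpha-tubulin that, unlike the others here, is made without the C-terminal tyrosine. Its signal was 69343 RU at d12 and 80173 RU at d25 in naïve cells, and Treg cells gave 66037 and 73366 RU. In TFH cells it was 37342 and 41342 RU, and in TFR cells 44311 and 40663 RU. The 4 follicular arrays again lay below the 4 others, and TFH and TFR overlapped. Tuba4a was 1.90-fold lower in TFH than in naïve cells (log2 -0.92 ± 0.11, adjusted p = 0.00326) and 1.64-fold lower in TFR than in Treg cells (-0.71 ± 0.11, adjusted p = 0.00932). The TFR minus TFH difference was 0.11 (-0.18 to 0.40) and that of Treg minus naïve -0.099 (-0.39 to 0.19). Leaving out the d12 Treg, d25 Treg or d25 TFR array gave -0.75 to -0.57 for TFR minus Treg, with adjusted p = 0.0528 to 0.0669.

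Tuba1c and Tuba1b, alpha-tubulins of dividing and most other cells, are neighbors of Tuba1a on chromosome 15. The probe starts lie 18.3 kb (Tuba1b) and 88.2 kb (Tuba1c) from that of Tuba1a. Tuba1c (chr15:98868477-98868536, plus strand) read 52483 and 57767 RU in naïve cells at d12 and d25, 46366 and 50087 RU in Treg, 66956 and 80384 RU in TFH, and 66282 and 73214 RU in TFR cells. Every follicular array exceeded every other array. The rise was 1.33-fold in TFH over naïve cells (0.41 ± 0.086, adjusted p = 0.016) and 1.45-fold in TFR over Treg cells (0.53 ± 0.086, adjusted p = 0.00981). A second probe that shares 42 of its 60 bases with the first gave 1.31-fold (adjusted p = 0.0324) and 1.45-fold (adjusted p = 0.0147). TFR and TFH cells differed by -0.075 (-0.30 to 0.15). The TFH call was lost without either naïve array (0.40 to 0.43, adjusted p = 0.0796 to 0.0908), without the day term (adjusted p = 0.0644) and without quantile normalization (0.26, adjusted p = 0.0701). The TFR call was lost on omission of any of its 4 arrays, d12 Treg, d12 TFR, d25 Treg and d25 TFR (0.50 to 0.57, adjusted p = 0.0574 to 0.0715).

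Tuba1b (chr15:98761923-98761982, minus strand) changed direction with the normalization. The brightest probe read 207141 and 226788 RU in naïve, 210450 and 217812 RU in Treg, 261323 and 295206 RU in TFH, and 294487 and 269491 RU in TFR cells (d12 first, then d25). TFH cells read 1.28-fold higher than naïve (0.36 ± 0.11, adjusted p = 0.0464), and TFR cells 1.32-fold higher than Treg (0.40 ± 0.11, adjusted p = 0.0401). Scaled to the 75th percentile without quantile normalization, the TFH minus naïve difference turned to -0.34 (adjusted p = 0.0757) and that of TFR minus Treg was 0.14 (adjusted p = 0.425). The second probe, which shares a run of only 6 bases with the first, read 91575 and 99664 RU in naïve, 79817 and 91404 RU in TFH, 89908 and 104200 RU in Treg, and 89276 and 95099 RU in TFR cells, and its differences of -0.16 (-0.38 to 0.055) and -0.071 (-0.29 to 0.15) did not pass. The TFH call was also lost on omission of any 1 of the 8 arrays (0.28 to 0.44, adjusted p = 0.0521 to 0.207), and the TFR call without either naïve, Treg or TFR array (0.27 to 0.52, adjusted p = 0.0659 to 0.197). Tuba1b is the 1 gene with several probes here for which the probes did not share a call.

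**Figure D2:**
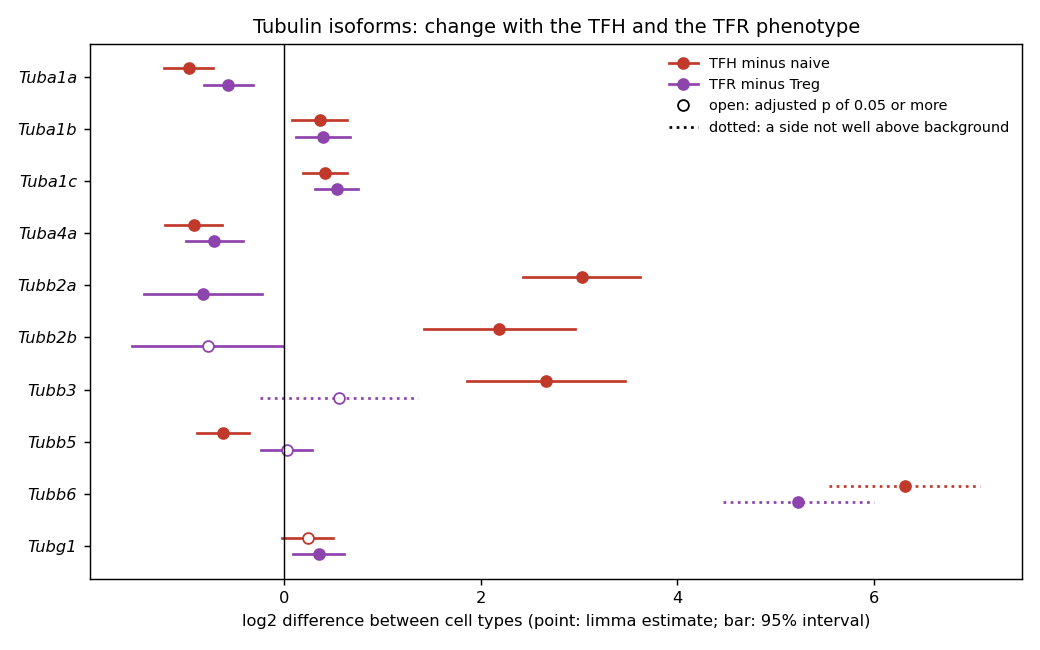
Log2 differences of the 10 tubulin genes for TFH minus naïve and TFR minus Treg cells, as limma estimates with 95% intervals from 8 arrays. Filled points passed an adjusted p of 0.05, and dotted intervals mark pairs in which a cell type was not well above background, so that their estimates are no measured folds. Tuba1a and Tuba4a lie left of 0 and Tuba1c right of 0 in both comparisons, whereas Tubb2a and Tubb2b lie on opposite sides.

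The beta-tubulins Tubb2a and Tubb2b separated TFH cells from the other 3 populations. Both encode beta-tubulins that are abundant in neurons, and their probe starts lie 53 kb apart on chromosome 13 (chr13:34166116-34166145 and chr13:34219092-34219151, both minus strand). Tubb2a read 67711 RU at d12 and 81540 RU at d25 in TFH cells, while naïve cells gave 9251 and 8981 RU, Treg cells 9598 and 9493 RU and TFR cells 6769 and 4266 RU. It was 8.15-fold higher in TFH than in naïve cells (3.03 ± 0.23, adjusted p = 0.000828) and 13.8-fold lower in TFR than in TFH cells (-3.79 ± 0.23, adjusted p = 0.00128). Naïve and Treg cells differed by 0.067 (-0.53 to 0.66). TFR cells lay below Treg cells on both days, 1.78-fold in the fit (-0.83 ± 0.23, adjusted p = 0.0433). That call was lost without either naïve, either Treg or the d25 TFR array (-0.89 to -0.46, adjusted p = 0.0774 to 0.183) and when dim probes were kept in the test (adjusted p = 0.168).

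Tubb2b read 8597 (d12) and 5008 RU (d25) in TFH cells, and in the same order 1427 and 1455 RU in naïve, 1543 and 1300 RU in Treg, and 1218 and 558 RU in TFR cells. The TFH arrays were highest and the TFR arrays lowest, as for Tubb2a, and the naïve and Treg arrays overlapped. The TFH level was 4.55-fold that of naïve cells (2.19 ± 0.30, adjusted p = 0.00449) and TFR cells were 7.96-fold below TFH cells (-2.99 ± 0.30, adjusted p = 0.00429). The TFR minus Treg difference of -0.78 (-1.55 to -0.012) missed the threshold (adjusted p = 0.0947). A second Tubb2b probe, overlapping the first by 29 bases, read 5.30-fold higher in TFH than in naïve cells (adjusted p = 0.00537). The following 30-base stretches of the brightest probes, as the files give them 5′ to 3′, are shown because the 2 genes moved together and are alike in their coding parts. Capitals mark their longest run shared without a mismatch, of 7 bases. Ahead of that run the stretches also match at most positions, so its length does not measure their likeness.
Tubb2a, bases 2 to 31 of the probe: ttagtgaacttCTGTTGTcctccagcattg
Tubb2b, bases 11 to 40 of the probe: tttctgaactcCTGTTGTaatggctaaaat
Over all 87 pairs of probes of different tubulin genes among the 10, the longest shared run was 10 bases. Which other transcripts a probe could bind was not tested.

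The change from naïve to TFH differed from the change from Treg to TFR for these 2 genes. The difference between the changes was -3.86 ± 0.33 on the log2 scale for Tubb2a (adjusted p = 0.00696) and -2.97 ± 0.42 for Tubb2b (adjusted p = 0.022). These were 2 of the 10 genes, where 4.47% of all genes passed in that direction and 4.05% in the other, in which none of the 10 passed (2 at an unadjusted p under 0.05). On d12 alone the values were -3.38 and -2.93, and on d25 alone -4.34 and -3.0, so each day gave both. The Tubb2a call remained on omission of any single array but not with dim probes kept (adjusted p = 0.0609). The Tubb2b call was lost without any 1 of 7 arrays, all but d25 naïve (-3.36 to -2.57, adjusted p = 0.0531 to 0.0973). Differences of the other 8 genes did not pass, among them Tubb3 (-2.11, adjusted p = 0.0549, with Treg and TFR below background) and Tubb5 (0.65 ± 0.14, adjusted p = 0.0632).

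**Figure D3:**
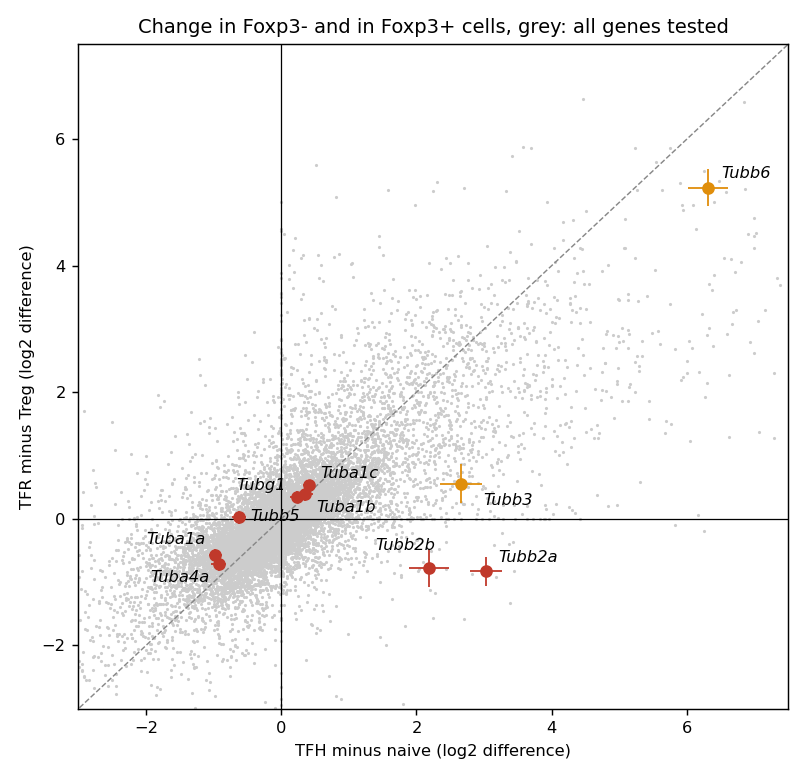
Change from Treg to TFR cells (y axis) against change from naïve to TFH cells (x axis), both as log2 differences with SE bars, for the 10 tubulin genes over all genes tested in grey, some of which lie beyond the axes. The 2 changes share no array. Orange marks Tubb3 and Tubb6, for which a cell type was not well above background, and Tubb2a and Tubb2b lie at the lower right, with 3.03 and 2.19 on the x axis and -0.83 and -0.78 on the y axis.

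Tubb3 (chr8:125945850-125945909, plus strand), the neuronal class III beta-tubulin, was measured in Foxp3- cells. TFH cells gave 669 RU at d12 and 821 RU at d25, and naïve cells 94 and 145 RU. On the Treg arrays it read 23 and 28 RU and on the TFR arrays 47 and 30 RU, none of them well above background. The TFH arrays were the highest and the naïve arrays came next, without overlap. TFH cells were 6.33-fold above naïve cells (2.66 ± 0.31, adjusted p = 0.00282), a call that held on omission of any array. Where only 1 side was measured, a bound was set from the lowest signal well above background on the dim arrays, 41.1 to 68.3 RU over the naïve, Treg and TFR arrays. Such bounds are approximate, since a probe below background can read above that signal. Stmn4 was not detected but read 78 RU on the d25 naïve array, where the limit was 49.9 RU. The adjusted p beside a bound is that of the limma fit to the signals as read. TFH cells were at least 14.0-fold higher than Treg cells (adjusted p = 0.000684) and at least 16.0-fold higher than TFR cells (adjusted p = 0.00184). Naïve cells were at least 2.20-fold higher than Treg (adjusted p = 0.0182) and at least 2.52-fold higher than TFR cells (adjusted p = 0.0108). The naïve call over Treg was lost without either naïve or either Treg array (adjusted p = 0.0597 to 0.126) and that over TFR without the d25 naïve array (adjusted p = 0.0595).

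Tubb6, a beta-tubulin found in many tissues at low level, was measured in follicular cells. Its signal was 3447 RU at d12 and 2431 RU at d25 in TFH cells, and 929 and 1171 RU in TFR cells. Naïve cells read 49 and 27 RU and Treg cells 28 and 27 RU, not well above background on any of these 4 arrays. Tubb6 thus passed the detection filter only through the cell types in which it read high. Approximate bounds were set as for Tubb3, and the adjusted p beside each is that of the limma fit to the signals as read. TFH cells were at least 49.6-fold above naïve cells (adjusted p = 0.000254) and TFR cells at least 19.6-fold above Treg cells (adjusted p = 0.000787), and both calls held on omission of any array. Cd68 and Klrb1c were called higher in these 2 comparisons as well, with Adgre1, Fcgr1, Cd14 and Ncr1 not detected on any array. Of the 5 myeloid genes tested, 2 rose and 2 fell from naïve to TFH cells. From Treg to TFR cells 1 rose and none fell (1 lower at an unadjusted p under 0.05). Cd8b1, a CD8 T cell gene listed with Klrb1c, fell in both comparisons. The part of other cells in the Tubb6 values was not tested. TFR cells lay 2.78-fold below TFH cells (-1.47 ± 0.30, adjusted p = 0.0288), without overlap of the arrays. That call was lost on omission of any TFH, Treg or TFR array (-1.87 to -1.07, adjusted p = 0.0526 to 0.141).

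Tubb5 (chr17:35971872-35971931, minus strand), the general beta-tubulin of lymphocytes, went the other way. It read 62540 and 54162 RU in naïve, 51244 and 51697 RU in Treg, 55419 and 49348 RU in TFR, and 37475 and 38056 RU in TFH cells, each at d12 and then d25. The 2 TFH arrays were the lowest, and naïve, Treg and TFR cells did not differ past the threshold, although both naïve arrays lay above both Treg arrays. TFH cells were 1.54-fold below naïve cells (-0.62 ± 0.10, adjusted p = 0.00774), and without the d12 naïve array this was -0.54 (adjusted p = 0.0564). TFR and Treg cells differed by 0.023 (-0.24 to 0.29). TFR cells were 1.39-fold above TFH cells (0.47 ± 0.10, adjusted p = 0.0344), the only 1 of the 10 genes higher there, but omission of any 1 of the 8 arrays ended that call (0.40 to 0.54, adjusted p = 0.0606 to 0.196).

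The gamma-tubulin Tubg1 (chr11:100987464-100987523, plus strand) varied least. It read 4068 and 3782 RU in naïve, 4691 and 4549 RU in TFH, 3738 and 3911 RU in Treg, and 5225 and 4530 RU in TFR cells, d12 before d25. All 4 follicular arrays lay above the 4 others by a small margin. The difference was 0.24 (-0.021 to 0.49, adjusted p = 0.111) for TFH minus naïve, and 1.27-fold in TFR over Treg cells (0.35 ± 0.10, adjusted p = 0.0465). The latter was lost on omission of any 1 of the 8 arrays (0.26 to 0.44, adjusted p = 0.0591 to 0.231).

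The other pairings restate these levels, since they reuse the same arrays. TFR and TFH cells differed in 5 genes, with Tubb5 higher (11.7% of all genes were higher) and Tubb2a, Tubb2b, Tubb3 and Tubb6 lower (10.5% were lower). Treg and naïve cells differed in Tubb3, which was lower (3.99% of all genes were), and in none that was higher (5.91% were, and none of the 10 at an unadjusted p under 0.05). Of the 10 genes, 9 differed between TFH and Treg cells, where 39.9% of all genes did, and 7 between TFR and naïve cells, where 53.2% did. In both pairings Tuba1b, Tuba1c and Tubb6 were higher and Tuba1a and Tuba4a lower in the follicular cells, except that Tuba1b turned to -0.0074 and -0.20 without quantile normalization. Single arrays mattered here too: TFH versus Treg gave 6 calls without the d25 Treg array, and TFR versus naïve gave 3 without the d25 naïve array and 4 without the d12 naïve, the d25 TFR or either Treg array. None of the 10 genes differed between d25 and d12 in limma (2 were higher at d25 at an unadjusted p under 0.05), where 0.0699% of all genes did. The largest of these differences in size was that of Tubb2b (-0.53 ± 0.21, adjusted p = 0.179, and -0.73 with its second probe, adjusted p = 0.14). Among the alpha-tubulins it was that of Tuba1a (0.26 ± 0.068, adjusted p = 0.103). All d12 arrays shared 1 slide, the d25 naïve and TFH arrays another and the d25 Treg and TFR arrays 1 more, so day and slide cannot be told apart.

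Genes with the most similar profile to a tubulin were found by the root mean square difference of log2 values over the 8 arrays, after each gene was centered on its own mean, for the 6 tubulins that spanned at least 1 log2 unit. Nearest to Tubb2b was Tubb2a-ps2, a pseudogene of Tubb2a, at 0.28, with 3376 and 3458 RU in TFH cells and 416 to 926 RU elsewhere. Its probe shared at most 9 bases in a row with any tubulin probe here. That compares probes only, and whether it also binds tubulin transcripts, or a tubulin probe binds its transcript, was not tested. Dennd2d (0.43) and Sema7a (0.44) followed. Nearest to Tubb3 were Ntrk3, a neurotrophin receptor, at 0.49, Fam222a at 0.50 and Tgfb3, a TGF-beta ligand, at 0.54. All 3 read highest in TFH cells and higher in naïve than in Treg cells. Ntrk3, for example, read 3748 and 5456 RU in TFH, 1178 and 1345 RU in naïve, 182 and 184 RU in Treg and 338 and 490 RU in TFR cells. Nearest to Tubb6 were Tmem121 (0.21), Dnase1l3 (0.41) and Slc37a2 (0.45), each at 1123 RU or more in TFH, 578 RU or more in TFR and 44 RU or less in naïve and Treg cells. For Tubb2a the nearest were 5830408B19Rik (0.37), the probe of transcript ENSMUST00000162013 (0.38) and Pla2g7 (0.38), which read 143 to 229 RU in TFH cells and 20 to 35 RU elsewhere, where 20 RU is the floor. Tuba4a lay nearest to Cenpj, a centriole protein gene, at 0.049, with 1070 and 1317 RU in naïve, 1027 and 1074 RU in Treg, 570 and 608 RU in TFH and 665 and 624 RU in TFR cells. The next for Tuba4a were probes without a gene symbol (0.056 and 0.081). Tuba1a lay nearest to A430103D13Rik (0.080), Zfp422 (0.093) and Zfp566 (0.099).

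Promoter sequences of 7 of the 10 genes were matched by symbol in RefSeq (GRCm38.p6). The 250 bases before the start of transcription are shown for Tubb2a, Tubb3 and Tuba4a. Tubb2a rose in TFH but not in TFR cells, and Tuba4a fell in both. Tubb3 rose in TFH cells and was not well above background in Treg or TFR cells. The sequences run 5′ to 3′ along the strand of the gene. Capitals mark matches, on either strand, to the TATA-box core TATAA, to the CCAAT box, to the GC-box core GGGCGG or to the cAMP-response core TGACGT.
Tubb2a, chr13:34078009-34078258, minus strand: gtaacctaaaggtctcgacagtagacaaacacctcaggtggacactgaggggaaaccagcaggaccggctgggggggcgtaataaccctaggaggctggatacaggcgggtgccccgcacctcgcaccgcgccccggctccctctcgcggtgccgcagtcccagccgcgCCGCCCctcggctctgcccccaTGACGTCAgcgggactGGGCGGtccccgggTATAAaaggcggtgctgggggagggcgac
Tubb3, chr8:123411303-123411552, plus strand: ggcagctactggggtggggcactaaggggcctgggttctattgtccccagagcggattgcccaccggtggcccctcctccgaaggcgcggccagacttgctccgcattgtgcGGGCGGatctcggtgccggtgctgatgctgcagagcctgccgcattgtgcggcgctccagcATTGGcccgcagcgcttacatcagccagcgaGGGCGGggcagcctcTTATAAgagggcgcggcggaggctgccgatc
Tuba4a, chr1:75219295-75219544, minus strand: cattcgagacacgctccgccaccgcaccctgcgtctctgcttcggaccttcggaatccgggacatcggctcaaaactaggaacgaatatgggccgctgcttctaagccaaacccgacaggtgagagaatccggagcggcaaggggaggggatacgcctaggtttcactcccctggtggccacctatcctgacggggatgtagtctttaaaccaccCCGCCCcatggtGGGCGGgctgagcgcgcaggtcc
TATAA was present in the windows of Tuba1a, Tubb2a and Tubb3 (3 of 7), and in 22.8% of 32851 RefSeq windows of this length. In Tubb2a the match began 29 bases, in Tubb3 31 bases and in Tuba1a 78 bases before the start. CCAAT was present in 4 of 7 windows (Tuba1a, Tuba1c, Tubb3 and Tubb5) and in 33.8% of all. GGGCGG was present in 5 of 7 (Tuba1a, Tuba1b, Tuba4a, Tubb2a and Tubb3) and in 32.7% of all, and TGACGT in Tubb2a alone and in 6.47% of all. The TGACGT matches of Tubb2a, 1 on each strand, overlap each other, as do the TATAA matches of Tubb3, and no match overlaps one of another motif. The arrays did not measure binding at these promoters.

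Other genes of the microtubule system were described as lists, each by its counts and its median. Of 10 other tubulins, 6 were tested. Tubg2, the second gamma-tubulin, read 262 to 357 RU in naïve, 1014 to 1285 in TFH, 222 to 302 in Treg and 665 to 800 in TFR cells, and was 3.73-fold higher in TFH than naïve (adjusted p = 0.00414) and 2.82-fold higher in TFR than Treg cells (adjusted p = 0.0109). Tuba8, named after its values were seen, was the other 1 called higher in both, with 368 and 676 RU in TFH and 89 and 221 RU in TFR cells against 26 to 44 RU elsewhere, and it was well above background on 4 arrays. Tubb4a was 1.83-fold lower in TFH than in naïve cells (adjusted p = 0.00741) and differed by -0.14 (adjusted p = 0.458) between TFR and Treg cells. The median over the 6 was 0.042 for TFH minus naïve and 0.034 for TFR minus Treg. The 2 calls in TFR cells were 0 without the d25 Treg or d25 TFR array or with dim probes kept, and 1 without the d12 TFR array.

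Of 23 genes for tubulin folding, comprising the chaperonin CCT that folds actin and tubulin, the prefoldins and the tubulin cofactors, 8 fell and 1 rose from naïve to TFH cells, and 6 fell and 2 rose from Treg to TFR cells. Their medians were -0.29 and -0.17. Over all genes, 25.7% fell and 21.0% rose in the first comparison, and 21.0% fell and 18.8% rose in the second. Cct4, a CCT subunit, was 1.89-fold lower in TFH (adjusted p = 0.00434) and 1.61-fold lower in TFR cells (adjusted p = 0.013). Tbcel, a tubulin-destabilizing protein related to cofactor E, was 1.54-fold lower (adjusted p = 0.00529) and 1.58-fold lower (adjusted p = 0.00609). Against them, Tbcb, the cofactor that binds alpha-tubulin, was 1.82-fold higher in TFH (adjusted p = 0.00325) and 1.35-fold higher in TFR cells (adjusted p = 0.030). The 9 calls in TFH cells were 4 without the d12 naïve array. The 8 in TFR cells were 0 without the d12 Treg or either TFR array, 1 without the d25 Treg array, 5 without either naïve array and 2 without the day term.

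Of 11 genes of the gamma-tubulin ring complex and its anchors, 2 were higher and none lower in TFH than in naïve cells (1 lower at an unadjusted p under 0.05), and from Treg to TFR cells 2 rose and 2 fell. All genes gave 21.0% higher and 25.7% lower in the first comparison, and 18.8% and 21.0% in the second. Tubgcp4, a ring subunit, was 1.36-fold and 1.30-fold higher (adjusted p = 0.0221 and 0.0397), and Akap9, a centrosome and Golgi anchor, 1.61-fold higher in TFH cells (adjusted p = 0.0466). Mzt2, a small ring component, was 1.33-fold higher (adjusted p = 0.0381) and Nedd1, which brings the ring to the centrosome, 1.47-fold lower (adjusted p = 0.0335) in TFR than in Treg cells. The medians were 0.043 and -0.047, and with dim probes kept in the test none of the 11 passed in either comparison. In TFH cells the count was 0 without the d12 naïve or d12 TFH array and 1 without the d25 naïve, d25 TFH or either TFR array. In TFR cells it was 0 without either Treg or the d25 TFR array, 1 without the d12 TFR or either naïve array and 2 without either TFH array.

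Of 20 tested genes for microtubule-binding and stabilizing proteins, 6 were higher and 2 lower in TFH cells and 8 higher and 1 lower in TFR cells, with medians of 0.23 and 0.42. Shares of all genes were 21.0% higher and 25.7% lower in TFH cells, and 18.8% and 21.0% in TFR cells. The 8 calls in TFH cells were 5 without either naïve array and 12 without the d25 TFH array. The 9 in TFR cells were 3 or 4 without any 1 of the Treg and TFR arrays, 6 without either naïve array and 3 with dim probes kept. Mapre2 and Mapre3, which track the growing ends of microtubules, had the largest called differences in both among genes well above background in both cell types. Mapre2 read 1394 and 1772 RU in naïve, 9421 and 12855 RU in TFH, 1960 and 2405 RU in Treg, and 5111 and 6049 RU in TFR cells, with d12 first. It was 7.0-fold higher in TFH than naïve (adjusted p = 0.000143), 2.56-fold higher in TFR than Treg (adjusted p = 0.00118) and 1.98-fold lower in TFR than TFH cells (adjusted p = 0.00352). Mapre3 was 2.77-fold higher in TFH (adjusted p = 0.00199) and 3.80-fold higher in TFR cells (adjusted p = 0.00171).

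Of 9 tested genes for proteins that destabilize or sever microtubules, 3 were higher and 1 lower in TFH cells, and 5 were higher and none lower in TFR cells (none at an unadjusted p under 0.05 either), with medians of 0.47 and 1.13. The count in TFH cells was 2 without the d25 naïve array, and that in TFR cells 3 without the d12 TFR array. Stmn1, which binds free tubulin dimers, read 51624 (d12) and 42365 RU (d25) in TFR and 7749 and 8729 RU in Treg cells, 5.69-fold apart (adjusted p = 0.00206), and 23241 and 15278 RU in TFH against 11706 and 12690 RU in naïve cells (0.63, adjusted p = 0.0672). Fignl1, of the family of severing enzymes, was 4.21-fold higher in TFH (adjusted p = 0.00101) and 6.76-fold higher in TFR cells (adjusted p = 0.000952), and Kif2a, a depolymerizing kinesin, 1.47-fold lower in TFH cells (adjusted p = 0.0162). Of 19 tested tubulin-modifying enzymes, 5 were higher and 4 lower in TFH cells and 5 higher and 2 lower in TFR cells, with medians of 0.021 and 0.24. For this list and the one before, all genes gave 21.0% higher and 25.7% lower in TFH cells. In TFR cells these shares were 18.8% and 21.0%. Ttll5, a glutamylase, was 4.56-fold higher in TFH (adjusted p = 0.000595) and 1.90-fold higher in TFR cells (adjusted p = 0.00936), and Ttll3, a glycylase, 2.58-fold and 1.70-fold lower (adjusted p = 0.00373 and 0.0254). Ttll9 was 2.18-fold and 3.25-fold higher (adjusted p = 0.0323 and 0.012). The 9 calls among modifying enzymes in TFH cells were 5 without the d12 naïve or either TFR array, and the 7 in TFR cells were 0 without the d12 TFR array and 1 without the d25 TFR or either Treg array.

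Cell cycle genes moved with both follicular populations and are given because microtubules form the spindle. Of 19 tested, 15 were higher in TFH than in naïve cells, 18 in TFR than in Treg cells and 15 in TFR than in TFH cells, and none was lower in the first 2 comparisons (none at an unadjusted p under 0.05 either). Among all genes, 21.0%, 18.8% and 11.7% were higher in these comparisons, in the same order. The medians of the first 2 were 2.53 and 2.72. The 15 calls between TFR and TFH cells were 4 without the d12 TFR, 6 without the d25 TFR and 8 without the d25 TFH array. The summed signal of the 20 listed, Aurkb not being detected, was 70288 to 71202 RU in naïve, 88608 to 92538 in Treg, 137358 to 155740 in TFH and 238547 to 265805 in TFR cells. Ccnb2 was 9.09-fold and 7.39-fold higher (adjusted p = 0.000184 and 0.000495), Birc5 8.03-fold and 6.89-fold (adjusted p = 0.000241 and 0.000605) and Cenpe 5.79-fold and 7.76-fold (adjusted p = 0.000931 and 0.00121). Bub1 was 7.42-fold higher in TFR than in Treg cells (adjusted p = 0.00298). The part of dividing cells in the tubulin values was not tested.

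**Figure D4:**
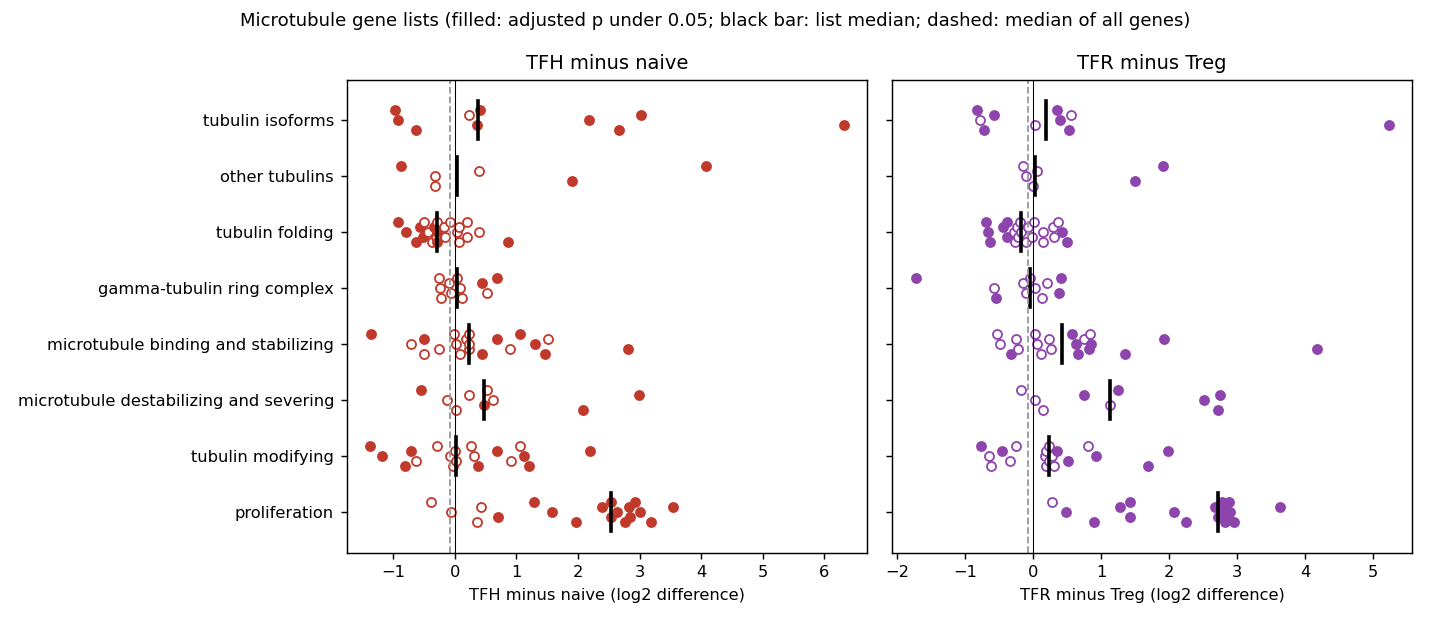
Log2 differences for TFH minus naïve (left) and TFR minus Treg cells (right), 1 point per tested gene, for the 10 tubulin isoforms and 7 lists of related genes. Filled points passed an adjusted p of 0.05, black bars are list medians and the dashed lines mark the medians of all genes tested, -0.071 and -0.077. Points of the tubulin isoforms lie on both sides of 0, while 15 and 18 of 19 cell cycle genes were higher, where 21.0% and 18.8% of all genes were.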

How the data were processed

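RNA of 4 sorted CD4+ T cell populations from pLN was measured on 8 Agilent arrays. The authors scanned the slides and extracted spots with Agilent Feature Extraction 10.7.3.1 (version per the submitters' processing notes); the deposited values are background-corrected intensity values of 4 spots per probe, and a deposited table holds the authors' normalized intensity per probe. Following the published methods, flagged and outlying spots were left out (beyond 1.42 interquartile ranges, or pixel variation above 0.5), spots averaged, and arrays quantile normalized, scaled to a 75th percentile of 1500 RU and floored at 20 RU. These values correlated at r = 0.9994 with the authors' table on every array. Of 4 spots, at least 2 remained for every tubulin probe. Quantile normalization forces 1 distribution on all arrays.

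Genes were tested with limma 3.58.1 (R 4.3.3) on log2 RU, with cell type and day as terms (3 residual degrees of freedom), two-sided, Benjamini-Hochberg adjusted over 15747 genes, 16 being left out for a missing array. The number of arrays limits precision. Named are all 10 tubulins, per list the 2 genes with the largest called difference in each of TFH versus naïve and TFR versus Treg cells and well above background in both cell types, Foxp3 and Pdcd1, and the 3 nearest profiles. Probe positions are those of the files (NCBI37), which give no exon or UTR for them. The members, lists and promoter motifs were chosen with earlier results of these data known. Alternatives covered normalization, background, filters, probes, floor, slide, day, variance prior and single arrays.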

Additional observations from a re-analysis of the deposited data

Results flagged for a closer look

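For 7 of the tubulins, microtubule genes and sort genes named, the change from Treg to TFR cells differed from the change from naïve to TFH cells in limma, over all 15747 genes. Of all genes, 4.05% passed with a positive difference and 4.47% with a negative one. Tubb2a changed by 3.03 in Foxp3- and by -0.83 in Foxp3+ cells on the log2 scale, a difference of -3.86 (adjusted p = 0.00696). For Tubb2b the changes were 2.19 and -0.78, and the difference was -2.97 (adjusted p = 0.022). Mapre2 rose by 2.81 and by 1.36, a difference of -1.45 (adjusted p = 0.00776). Ttll5 rose by 2.19 and by 0.92, a difference of -1.27 (adjusted p = 0.0307). Stmn1 went the other way, with 0.63 and 2.51 and a difference of 1.88 (adjusted p = 0.0305). The other 2 are genes whose products the sort used. Pdcd1 changed by 6.99 and by 4.47, a difference of -2.52 (adjusted p = 0.00741), and Foxp3 by -2.11 and by -0.39, a difference of 1.72 (adjusted p = 0.0216). These calls depended on the processing. The 2 among microtubule-binding genes, the list of Mapre2, were 0 without the day term. With dim probes kept, the 1 among destabilizing genes (Stmn1) and the 1 among modifying enzymes (Ttll5) were 0.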

How the results depend on the processing

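Of 40 calls over the 10 tubulin genes and 8 comparisons, 19 kept direction and call under all of the 19 tested alternatives that gave a value. Reversed was Tuba1b alone: without quantile normalization it was -0.34 for TFH versus naïve, -0.0074 for TFH versus Treg and -0.20 for TFR versus naïve cells. The cause was not tested. Counts of called tubulins moved as follows. TFR versus Treg (7) gave 4 with dim probes kept and 4 without the day term. TFR versus TFH (5) gave 3 with dim probes kept and 3 with the filter on all 8 arrays, which removes Tubb3 and Tubb6. Treg versus naïve (1) gave 0 with dim probes kept, 0 with the stricter filter and 0 with slide as block, and TFR versus naïve (7) gave 4 with dim probes kept and 4 with slide as block. The difference between the 2 changes (2) gave 4 without quantile normalization, 5 with normexp, 0 with dim probes kept, 1 with slide as block and 4 with a trended prior, which also called 1 gene for d25 versus d12. Leaving out each array in turn gave 6 to 8 (TFH versus naïve), 1 to 6 (TFR versus Treg), 3 to 4 (TFR versus TFH), 0 to 1 (Treg versus naïve), 6 to 8 (TFH versus Treg), 3 to 7 (TFR versus naïve), 1 to 2 (difference between changes), 0 (days) and 7 to 8 (F test), where the lone array of a cell type is assumed to vary like the others. Over all genes and alternatives, calls ranged from 4323 to 7833 for TFH versus naïve (7347 as reported), 2524 to 6832 for TFR versus Treg (6261), 947 to 4271 for TFR versus TFH (3493), 423 to 2092 for Treg versus naïve (1558), 3195 to 6861 for TFH versus Treg (6290), 4678 to 8933 for TFR versus naïve (8377), 303 to 1833 for the difference between changes (1341), 0 to 1141 for the days (11) and 5652 to 9956 for the F test (9118). Signals not well above background, in naïve and Treg cells for Tubb6 and in Treg and TFR cells for Tubb3, give approximate bounds only. The day term already pairs the cell types within d12 and within d25, and values of 1 day alone had no test.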
